A study of Homo sapiens with 6 samples.

Results

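Mitochondrial respiratory chain subunits were examined in residual MHCC97H cells after sublethal heat, with and without added POSTN. MHCC97H is an established human HCC line of high metastatic potential, and the residual cells are those left after heating at 47 °C, a sublethal temperature. The POSTN samples (3 arrays) received 100 ng/mL recombinant POSTN, a secreted matrix protein that binds integrins, for 24 h, and the control samples (3 arrays) had the same line, heating and culture time with 0 ng/mL. No unheated cells were compared, so every value below refers to cells after heat. The labels number the arrays 1, 2 and 3 in each condition and do not say whether these were separate cultures, so p-values measure only the spread between these samples. A member was any gene whose symbol, standing alone on a probe set of the Affymetrix Human Genome U133 Plus 2.0 array, begins with NDUFA, NDUFB, NDUFC, NDUFS or NDUFV and a number, UQCR, COX4 to COX8 or ATP5, or is SDHA, SDHB, SDHC or SDHD. The brightest probe set stood for each gene. This gave 81 members of 19775 genes, read by 156 probe sets. Of the members, 76 were protein-coding and 5 were not (the pseudogenes ATP5MC2P1 and COX6A1P1 and the transcripts NDUFB2-AS1, NDUFV2-AS1 and NDUFV1-DT).

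The respiratory chain sits in the inner mitochondrial membrane. Complexes I and II pass electrons from NADH and succinate to ubiquinone, complex III passes them on to cytochrome c and complex IV to oxygen, and complexes I, III and IV pump the protons that drive ATP synthesis by complex V. All complex II subunits and most subunits of the others are encoded in the nucleus, so their mRNAs must be made in step with a small set of transcripts read from mitochondrial DNA. In hepatocytes and hepatoma cells these mRNAs are among the abundant ones, and several complex IV subunits exist as a widely used form and a form found in muscle, testis or other tissues.

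The values are log2 of MAS 5.0 signals, and a probe set was called above background when its mean over the 6 arrays was over 5.98, the 95th percentile of the means of 107 olfactory receptor probe sets. Of the 76 coding members, 71 were above background (32 of complex I, 3 of complex II, 6 of complex III, 13 of complex IV and 17 of complex V), and they are called the subunits below. That name follows the symbols alone and does not mean that each one, such as ATP5IF1 or COX7A2L, is a structural subunit. Except for COX4I2, the subunits had mean log2 signals from 10.52 (ATP5MC1) to 14.76 (COX6C), far from background. The 5 coding members at or under it were ATP5MF, COX6A2, COX6B2, COX7A1 and COX8C. ATP5MF encodes a membrane subunit of ATP synthase, and its only probe set with 1 symbol was dim. On the linear scale, the mean signal without the highest and lowest 2% was 500 on every array. Of 12 hepatocyte and hepatoma markers, 9 were above background, with KRT18 at 14.97 with POSTN and 15.07 in control cells. The summed signal of all 12 was 52319 to 54560 on POSTN arrays and 52425 to 58269 on control arrays. This linear sum is mostly KRT18 and KRT8 (13.93 with POSTN and 13.99 in control cells), so it says little about the other markers. Of 3 leukocyte markers 0 were above background, of 8 stellate cell markers 3, and of 4 endothelial markers 2. In such bulk samples, fewer cells that use a gene and less RNA per cell cannot be told apart.

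The isoform genes of complex IV differed widely in signal, though a dim probe set does not show that a gene is unused. COX4I1, the widely expressed form of the subunit that helps regulate the enzyme, had log2 signals of 13.72, 13.86 and 13.86 with POSTN and 13.80, 13.87 and 13.95 in control cells. COX4I2, the form best known from lung, had 5.95, 6.93 and 7.27 with POSTN and 6.08, 6.49 and 6.59 in control cells. The conditions overlapped for both genes, and COX4I2 lay close to background. The heart and skeletal muscle forms COX6A2 and COX7A1 and the testis forms COX6B2 and COX8C were at or under background, whereas the widely expressed COX6A1, COX6B1, COX7A2, COX7A2L and COX8A were all far above it. Signals of COX6A2 on single arrays ran from 5.25 to 5.74 with POSTN and from 3.17 to 6.58 in control cells. COX7B2, a paralog of COX7B that in humans is mainly found in testis, did not follow these: it had log2 signals of 11.21 to 11.30 with POSTN and 11.14 to 11.28 in control cells, well above background, and a log2 fold change of 0.06 (standard error 0.09).

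**Figure D1:**
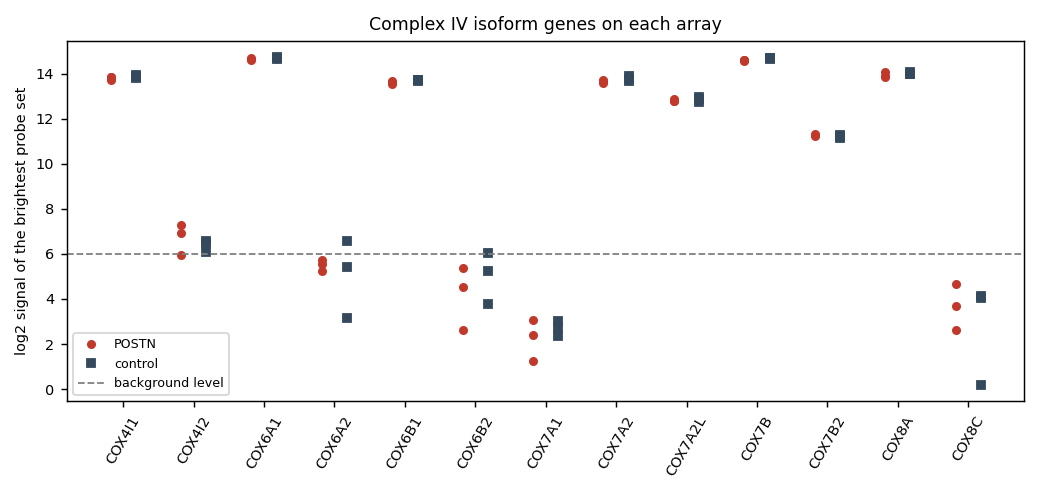
Log2 signal of the brightest probe set (y axis) of 13 complex IV isoform genes (x axis) on each POSTN array (circles) and control array (squares); the background level (5.98) is dashed. COX4I2 lies close to the line, COX6A2, COX6B2, COX7A1 and COX8C lie mostly under it, and COX7B2 lies at 11.14 to 11.30 on every array.

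With POSTN, no member of any of the 5 complexes differed from control at an adjusted p under 0.05. Of the 71 subunits, 21 had a higher and 50 (70.4%) a lower mean with POSTN, against 52.8% lower of the genes above background and 58.7% of those with a mean log2 signal of 10 or more. After quantile normalization 43 subunits (60.6%) were lower, against 53.7% of these bright genes, and after centring each array on its median 61 (85.9%) were, against 81.7%. The median log2 fold change of the subunits was -0.04, with a range from -0.13 (NDUFA13) to 0.33 (COX4I2). In limma, 0 of the 81 members were called, where 0% of all 54613 probe sets were, and the lowest adjusted p of a member was 0.9999. At an unadjusted p under 0.05, limma counted 0 members, against 0.866% of the genes above background. With the replicate number as a block it counted 3 (NDUFB7 higher, NDUFA13 and UQCR11 lower), against 4.63% of those genes, and the lowest adjusted p was 0.97. None of the 156 member probe sets met the thresholds of the methods, that is a fold change over 2 or under 0.5 together with an unadjusted p under 0.05, which 2.56% of all probe sets met. The genes with a mean log2 signal of 10 or more had log2 fold changes from -0.52 to 0.63. None of these bright genes reached a fold change of 2 either, so the absence is shared by bright genes in general. The precision was high for this array, since the median standard error of a subunit was 0.09. For 70 of the 71 subunits the 95% confidence interval lay within 1.5-fold in either direction. The exception was COX4I2 (-0.56 to 1.23). The same was true of 68.2% of the genes above background and of 96.5% of those with a mean log2 signal of 10 or more, so this precision belongs to bright probe sets in general.

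**Figure D2:**
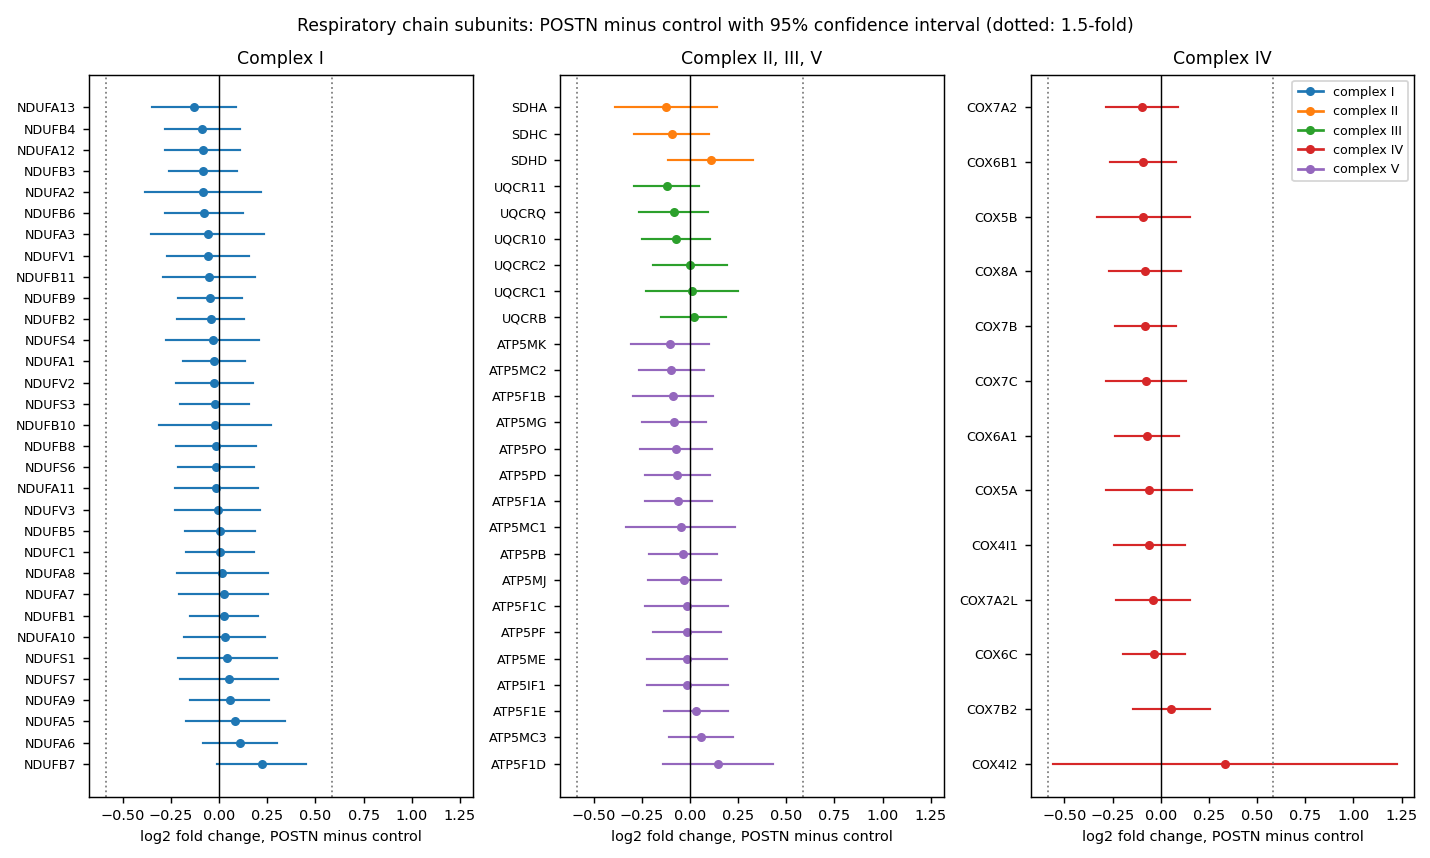
Log2 fold change, POSTN minus control, of 71 subunit genes (points, x axis) with the 95% confidence interval of the limma fit (lines), by complex and ordered by value; dotted lines mark 1.5-fold. Every interval except that of COX4I2 lies between the dotted lines, and 50 of the 71 points lie left of 0.

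Every complex held lower values, in unequal shares. They made up 62.5% of complex I, 66.7% of II, 50% of III, 84.6% of IV and 82.4% of V. Of the genes with a mean log2 signal of 10 or more, 58.7% were lower. In complex I, 12 subunits were higher and 20 were lower (median log2 fold change -0.02). NDUFV1, the flavin subunit that accepts electrons from NADH, had log2 signals of 11.44 ± 0.02 with POSTN and 11.50 ± 0.14 in control cells (SD, n = 3 each), and NDUFS1, the largest iron-sulfur subunit, had 11.20 ± 0.07 with POSTN and 11.16 ± 0.20 in control cells (SD, n = 3 each). Both differences were smaller than the spread of the control arrays. NDUFA13, an accessory subunit also known as GRIM-19, had the lowest value of the complex, with 12.53, 12.60 and 12.71 with POSTN and 12.70, 12.62 and 12.91 in control cells (log2 fold change -0.13, standard error 0.10). Its conditions overlapped.

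NDUFB7, an accessory subunit on the intermembrane side of complex I, was the only member whose 3 POSTN arrays were all above the 3 control arrays. Its log2 signals were 10.91, 10.64 and 10.85 with POSTN and 10.59, 10.61 and 10.54 in control cells, a log2 fold change of 0.22 (1.16-fold, standard error 0.10, limma adjusted p = 0.9999). The gap between POSTN 2 and control 2 was small. Of the genes above background, 2.16% had no overlap in this direction. Its second probe set was under background.

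In complex II, which also serves the tricarboxylic acid cycle, SDHA, the flavoprotein that oxidises succinate, had log2 signals of 11.05, 10.99 and 10.89 with POSTN and 11.26, 10.86 and 11.17 in control cells. Its log2 fold change was -0.12 (standard error 0.12), and the conditions overlapped. SDHC and SDHD are the membrane anchors that bind ubiquinone. SDHD gave 0.11 (standard error 0.10), with 12.88 on POSTN 1 and 12.53 to 12.67 on the 5 other arrays. SDHC had 11.16, 11.22 and 11.14 with POSTN and 11.25, 11.32 and 11.23 in control cells, a log2 fold change of -0.10 (standard error 0.09). Its conditions did not overlap, but 3 of its 5 other probe sets above background had positive values (0.05, 0.05 and 0.09), so the order rested on 1 probe set.

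In complex III, 3 subunits were higher and 3 were lower (median -0.04). The core proteins UQCRC1 and UQCRC2 had log2 fold changes of 0.00886 and 0.000393 (standard errors 0.11 and 0.09). UQCRB, which binds ubiquinone, gave 0.02. UQCR11, the smallest accessory subunit, had 13.80, 13.74 and 13.68 with POSTN and 13.91, 13.85 and 13.84 in control cells, with no overlap (log2 fold change -0.12, standard error 0.08, limma adjusted p = 0.9999). Its dimmer probe set was also lower (log2 fold change -0.41, standard error 0.16).

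In complex IV, 11 of 13 subunits were lower (median -0.07), and apart from COX4I2 none was further from 0 than COX7A2 (log2 fold change -0.10, standard error 0.08). COX5A, on the matrix side of the enzyme, gave -0.06, and COX4I1 gave -0.06 as well. COX7B, a small subunit that crosses the membrane, had 14.57, 14.62 and 14.60 with POSTN and 14.65, 14.69 and 14.69 in control cells (log2 fold change -0.08, standard error 0.07), without overlap. In complex V, 14 of 17 were lower (median -0.04). The catalytic head subunits ATP5F1A, ATP5F1B and ATP5F1C, which are alpha, beta and the central gamma, gave -0.06, -0.09 and -0.02. ATP5MK, a small subunit that helps ATP synthase form dimers, was lowest at -0.10 (standard error 0.09). ATP5MC2, one of the genes for the proton-carrying c subunit, had 13.39, 13.43 and 13.50 with POSTN and 13.53, 13.50 and 13.57 in control cells (log2 fold change -0.10, standard error 0.08). The highest POSTN array and the lowest control array were level to 2 decimals. ATP5MF gave 0.63 (standard error 0.67) on its dim probe set, where the interval ran from -0.87 to 2.14.

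The 4 members with no overlap and lower signal with POSTN were thus SDHC, UQCR11, COX7B and ATP5MC2, or 5.63% of the 71 subunits, against 2.81% of the genes above background. Set pair by pair, POSTN minus control within the same replicate number, the median of the 71 subunits was -0.04 for number 1, -0.03 for number 2 and -0.05 for number 3. Equal numbers were taken as pairs, which the labels do not state. Of the subunits, 25 (35.2%) were lower with POSTN in all 3 pairs, and 3 (4.23%) were higher in all 3 (NDUFB1, NDUFB7 and ATP5F1D). Of the genes above background, 14.8% were lower and 10.4% were higher in all 3 pairs. Of those with a mean log2 signal of 10 or more, 18% were lower and 8.52% were higher. The 25 included 8 of 13 in complex IV (COX4I1, COX5A, COX5B, COX6A1, COX6B1, COX7A2, COX7B and COX7C), 7 of 32 in complex I, 1 of 3 in complex II, 3 of 6 in complex III and 6 of 17 in complex V. The gap to all genes depended on the scaling. After quantile normalization 12 subunits (16.9%), 5 of them in complex IV, were lower in all 3 pairs, against 13.9% of the genes above background and 14.1% of the bright ones. After median centring 32 (45.1%) were, 10 of them in complex IV, against 25.8% and 35%. The median log2 fold change of the subunits was -0.01 after quantile normalization and -0.09 after median centring.

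**Figure D3:**
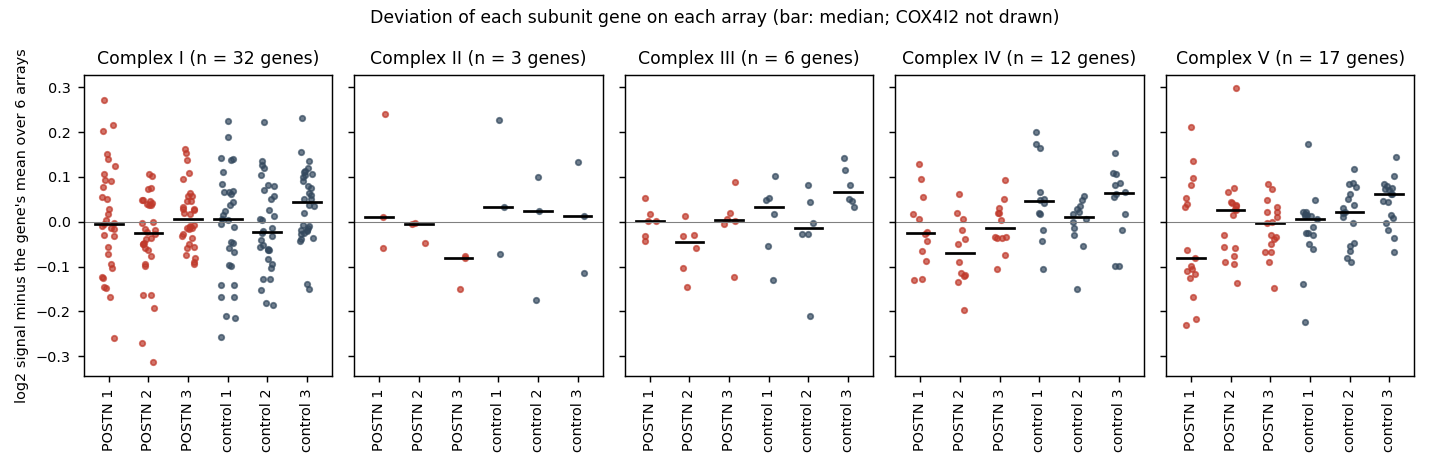
Log2 signal of each subunit gene minus its own mean over the 6 arrays (y axis, points) on every POSTN and control array (x axis), by complex, with bars at the median and COX4I2 left out. In complex IV, control 1 and control 3 lie highest and POSTN 2 lies lowest, and in complex V POSTN 1 has the lowest median (-0.08).

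The median deviation of the 71 subunits from their own means was -0.00902, -0.0287 and -0.0034 on POSTN 1, 2 and 3, and 0.0141, 0.00481 and 0.0517 on control 1, 2 and 3. The 3 POSTN arrays lay under the 3 control arrays, and control 3 stood furthest from 0. Complex by complex, these medians overlapped between the conditions in complexes I, III and V. In complex I, POSTN 3 (0.00541) lay above control 2 (-0.0227), in complex III, POSTN 3 (0.00445) lay above control 2 (-0.015), and in complex V, POSTN 2 (0.027) lay above control 1 (0.00697). They did not overlap in complexes II and IV, but the gaps were very small. In complex II, POSTN 1 was at 0.0110 and control 3 at 0.0125, and in complex IV, POSTN 3 was at 0.00431 and control 2 at 0.00503.

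Nuclear respiratory factor NRF1, the ETS factor GABP and YY1 are known to bind promoters of nuclear respiratory chain genes. Their core letters were looked up in the RefSeq promoter window of each gene (build GRCh38.p14, 250 bases before to 50 after the annotated start), which 65 of the 76 coding members have. Both strands were searched, overlapping matches were each counted, and the letters of different motifs can share bases. GCGCNNGCGC, for NRF1, occurred in 17 members (26.2%) and in 12.0% of 15843 coding promoters. CCGGAAG, for ETS factors, occurred in 18 members (27.7%) and in 14.2% of the promoters. AAGATGG, for YY1, occurred in 15 members (23.1%) and in 6.4% of the promoters, and GGGCGG, for Sp1, in 61.5% and 58.5%. At least 1 of the first 3 occurred in 60% of the members and in 28.3% of all coding promoters. By complex, the NRF1 letters were in 7 of 30 promoters of complex I, 2 of 2 of complex II, 3 of 5 of complex III, 1 of 14 of complex IV and 4 of 14 of complex V. These matches describe letters, not bound sites. The SDHA promoter is shown because it holds 4 NRF1 matches, 49 bases apart, as 0.158% of coding promoters have 4 or more. UQCR11 and NDUFB7 are shown as members without overlap between the conditions, NDUFA3 and NDUFB10 as members called in the comparison of replicate numbers described next, and COX7C as one that just missed its threshold. The other called members, NDUFA2 and COX5A, had no NRF1, ETS or YY1 match or no window. The same held for SDHC, COX7B and ATP5MC2, the other members without overlap. The promoters shown were thus picked for their matches and do not tie the letters to these groups. Capitals mark the motif.
SDHA, chr5:218134-218330, + strand, NRF1 letters first at -166 from the start: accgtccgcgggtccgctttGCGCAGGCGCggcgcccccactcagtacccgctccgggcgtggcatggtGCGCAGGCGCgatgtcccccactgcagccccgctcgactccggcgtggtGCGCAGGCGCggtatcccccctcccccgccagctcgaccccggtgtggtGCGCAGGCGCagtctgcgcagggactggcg
UQCR11, chr19:1605443-1605511, - strand, 2 matches to the NRF1 letters, 19 bases apart: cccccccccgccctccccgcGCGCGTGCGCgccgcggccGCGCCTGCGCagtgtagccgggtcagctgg
NDUFB7, chr19:14572064-14572110, - strand, ETS letters at -24: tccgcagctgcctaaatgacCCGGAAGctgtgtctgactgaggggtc
NDUFA3, chr19:54102762-54102811, + strand, NRF1 letters at -73: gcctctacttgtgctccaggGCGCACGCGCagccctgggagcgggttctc
NDUFB10, chr16:1959480-1959529, + strand, NRF1 letters at -38: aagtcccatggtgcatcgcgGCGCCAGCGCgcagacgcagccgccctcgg
COX7C, chr5:86617913-86617959, + strand, YY1 letters in reverse at -8: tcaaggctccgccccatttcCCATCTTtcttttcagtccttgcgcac

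The arrays numbered 1, POSTN 1 and control 1, stood apart from the 4 numbered 2 and 3. With the condition as a covariate, limma called 3069 of all probe sets (5.62%) and 15.1% of the genes above background at an adjusted p under 0.05. Of the 71 subunits, 36 were higher and 35 were lower in number 1, and 4 (5.63%) were called, where 20.7% of the genes with a mean log2 signal of 10 or more were. The count depended on the setting. When only probe sets above background were tested, 11 subunits (15.5%) were called, against 20.3% of the genes above background and 27.3% of the bright ones. With the mean of a gene's probe sets, 15 (21.1%) were called, against 18.6% and 26.8%. The 4 were NDUFA2, NDUFA3 and COX5A, higher in number 1, as 7.9% of the genes above background were, and NDUFB10, lower in number 1, as 7.19% were. The differences were small.

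NDUFB10, an accessory subunit of the membrane arm of complex I, had log2 signals of 12.32 on POSTN 1 and 12.37 on control 1, against 12.66 and 12.74 on POSTN 2 and 3 and 12.72 and 12.70 on control 2 and 3. The difference, number 1 minus numbers 2 and 3, was -0.36 (0.781-fold, standard error 0.06, limma adjusted p = 0.0041). NDUFA2, of the matrix arm of complex I, had 12.15 and 12.17 in number 1, against 11.64, 11.93, 11.89 and 11.91 on POSTN 2 and 3 and control 2 and 3 (difference 0.32, standard error 0.08, limma adjusted p = 0.046). POSTN 2 was the lowest array for this gene, as it was for NDUFA3. NDUFA3, a membrane arm subunit, had 12.42 and 12.29 in number 1, against 11.88, 12.06, 12.12 and 12.13 on those arrays (difference 0.31, standard error 0.08, limma adjusted p = 0.048). COX5A had 14.03 and 14.08 in number 1, against 13.79, 13.80, 13.92 and 13.81 (difference 0.23, standard error 0.05, limma adjusted p = 0.034). In all 4 genes, both arrays numbered 1 lay on the same side of the 4 others. The dimmer probe sets of COX5A (-0.22) and NDUFA2 (-0.37 on the one above background) had the opposite sign, whereas that of NDUFB10 had the same (-0.16). With 2 arrays in number 1, the calls rested on both. A fit without POSTN 1 or control 1 has 1 array in number 1, so its member calls are not counted here. There was 1 call without POSTN 2 or without control 3, there were 2 without POSTN 3, and there were 6 without control 2. NDUFB10 kept its call without any of the 4 arrays numbered 2 or 3. Leaving out each of the 6 arrays in turn, its difference ran from -0.37 to -0.34. With a prior variance that does not follow the mean signal, limma called 0 members. No share of all genes was set beside these counts, so a loss among the members cannot be told from a general loss.

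**Figure D4:**
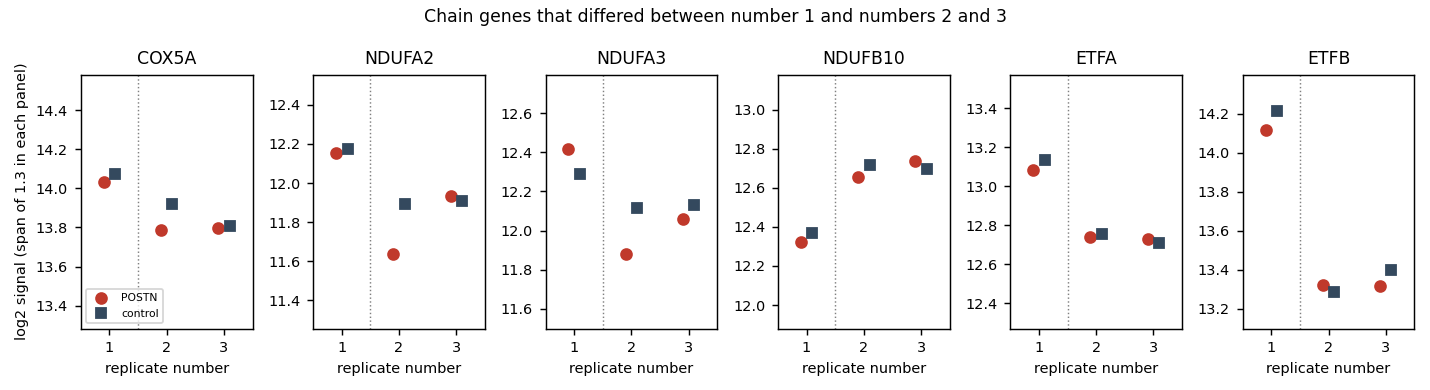
Log2 signal (y axis, each panel spanning 1.3) of COX5A, NDUFA2, NDUFA3 and NDUFB10 and of the electron transfer flavoprotein genes ETFA and ETFB by replicate number (x axis), with POSTN as circles and control as squares. Both arrays numbered 1 lie above the 4 others for all genes but NDUFB10, where they lie below.

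Close to the threshold were COX7C, a small complex IV subunit (0.19, limma adjusted p = 0.051), ATP5F1D, the delta subunit of the ATP synthase stalk (-0.29, limma adjusted p = 0.059), ATP5MC1, a second gene for the c subunit (0.29, limma adjusted p = 0.060), and ATP5F1C (-0.20, limma adjusted p = 0.080). A further pair of probe sets of ATP5F1C, both ending in _x_at, passed it (-0.27 and -0.24, limma adjusted p = 0.015 and 0.030). In complex II, the differences were 0.18 for SDHA, 0.13 for SDHD and -0.02 for SDHC. In complex III, UQCRC2 gave -0.12, UQCR11 gave 0.08 and UQCRQ, a ubiquinone-binding subunit, gave 0.05, and limma called none of these. COX4I2 gave -0.81 (95% confidence interval -1.55 to -0.06, limma adjusted p = 0.24), near background. Of the subunits, 9 (12.7%) were higher and 15 (21.1%) were lower on both arrays numbered 1 than on all 4 others, against 23.2% and 20.6% of the genes above background. Among genes with a mean log2 signal of 10 or more, the shares were 21.3% higher and 29.9% lower, both above those of the subunits. The medians by complex were 0.04 for I, 0.13 for II, 0.01 for III, -0.03 for IV and -0.06 for V, and those of IV and V turned to 0.07 and 0.03 after quantile normalization. Between numbers 2 and 3, limma called 0 members, as it called 0% of all probe sets, with 1 subunit higher and 6 lower in number 2 at an unadjusted p under 0.05, which 7.32% of the genes above background had.

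**Figure D5:**
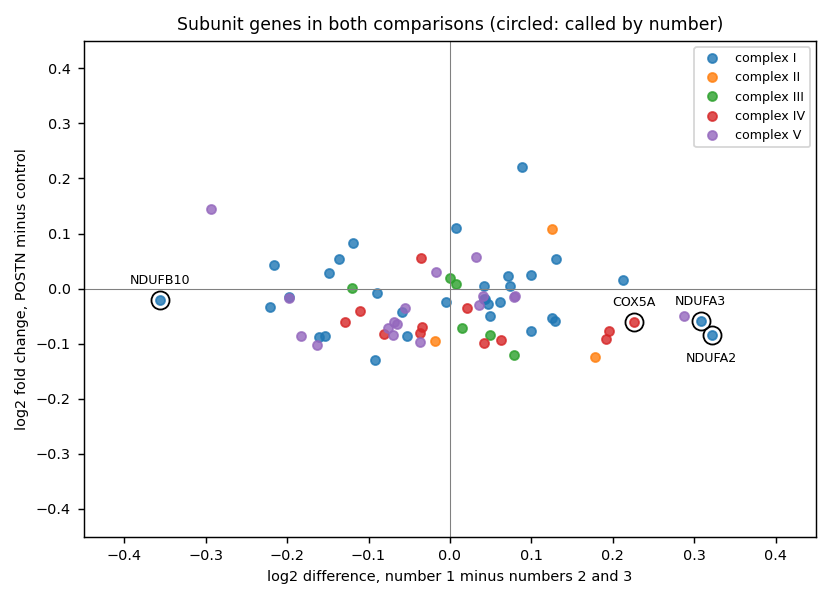
Log2 fold change, POSTN minus control (y axis), against the log2 difference, number 1 minus numbers 2 and 3 (x axis), for 70 subunit genes coloured by complex (COX4I2, at -0.81 on the x axis, is not drawn); both come from the same 6 arrays. The 4 circled genes passed limma's adjusted threshold for the number, and each differed by less than 0.1 between POSTN and control.

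Other genes of the pathway were taken from lists. Of 46 assembly factors above background, 21 had higher and 25 had lower means with POSTN (median -0.01). The lowest was ATPAF2, a chaperone of the ATP synthase head, at -0.29 (standard error 0.18). The highest was COX17, a copper chaperone of complex IV, at 0.35 (standard error 0.43). The mean log2 signal of COX17 was 6.22, close to background, and its conditions overlapped. By number, limma called 4 of them (8.70%), against 15.1% of the genes above background: COA6, which helps copper delivery to complex IV, was higher in number 1 (0.33), and PET117 (-0.51), a complex IV factor, and TTC19 (-0.34) and UQCC1 (-0.45), which serve complex III, were lower. Of 16 other chain genes, 4 were higher and 12 were lower with POSTN (median -0.05). The 7 of them read from mitochondrial DNA gave -0.19 for ATP6, -0.06 for COX1, -0.11 for COX2, 0.23 for COX3, -0.06 for ND2, -0.11 for ND4 and 0.04 for ND6. For ATP6, the log2 signals were 14.55, 14.86 and 14.83 with POSTN and 14.96, 15.00 and 14.86 in control cells, and the lowest was that of POSTN 1. ETFB and ETFA, which pass electrons from fatty acid oxidation to ubiquinone through ETFDH, had the largest differences by number in this list. They were its only genes called by number (12.5%, against 15.1% of the genes above background). ETFB had 14.12 on POSTN 1 and 14.21 on control 1, against 13.29 to 13.40 on the 4 others (0.83, limma adjusted p = 1.3e-05), and ETFA gave 0.37 (limma adjusted p = 0.0024). ETFDH gave 0.26 (limma adjusted p = 0.16). Of the 6 genes of these lists called by number, only ETFB kept its call without each array in turn. PET117 lost it without control 1 (limma adjusted p = 0.13), and COA6, TTC19, UQCC1 and ETFA lost it without either array numbered 1, COA6 and TTC19 also without POSTN 3 and COA6 without POSTN 2. UQCC1 had a positive difference (0.12) as the mean of its probe sets.

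Of 15 regulators of mitochondrial biogenesis, 14 were above background, and 10 were higher and 4 were lower with POSTN (median 0.01). PPARGC1A, the inducible coactivator of biogenesis in liver and muscle, was under background. NRF1, GABPA, YY1 and TFAM, the last a packaging and transcription factor of mitochondrial DNA, gave 0.02, 0.10, 0.01 and 0.06. By number, limma called 1 of the 14 (7.14%, against 15.1% of the genes above background). MYC was higher in number 1 (0.28, limma adjusted p = 0.015), and the call was lost without POSTN 1, POSTN 2 or control 1 (limma adjusted p = 0.11, 0.051 and 0.24). Of 12 tricarboxylic acid cycle genes, 8 were higher and 4 were lower with POSTN (median 0.01). By number, CS, citrate synthase, was lower (-0.34, limma adjusted p = 0.032) and IDH2 was higher (0.39, limma adjusted p = 0.048) in number 1. CS and IDH2 made up 16.7% of the list, near the 15.1% called of the genes above background. Both calls were lost without POSTN 1 (limma adjusted p = 0.48 for CS and 0.26 for IDH2) and without most other single arrays. With POSTN, limma called 0 genes of these 4 lists, and 0 had an unadjusted p under 0.05. Markers of cell types also differed by number. Of the 9 hepatocyte and hepatoma markers above background, limma called 4 (44.4%, against 15.1% of the genes above background): ALB (1.85), APOH (1.65), FGB (2.65) and TF (2.83) were higher in number 1. The 5 others, AFP (0.12), KRT8 (-0.03), KRT18 (-0.16), TTR (-0.44) and APOB (-0.65), were not called. ALB passed the background level of 5.98 through number 1 (7.83 and 7.75, against 5.65 to 6.13 on the 4 others). SERPINA1, under background, was also higher in number 1 (2.92, limma adjusted p = 0.0056). APOA1 (1.80) and GPC3 (-0.02), also under background, were not called. The 44.4% thus depends on a filter that the arrays numbered 1 helped to set. The summed signal of all 12 hepatocyte markers was 54560 to 58269 in number 1 and 52319 to 57447 in numbers 2 and 3. That sum is mostly KRT18 and KRT8, so it cannot show whether the other markers were level. Of the 3 stellate cell markers above background, DCN was lower in number 1 (-1.002, limma adjusted p = 0.00037). COL1A1 (-0.30) and LUM (0.03) were not called. Of the 2 endothelial markers, PECAM1 was higher (0.51, limma adjusted p = 0.018), and KDR (-0.01) was not called. In each list 1 gene was called, where 15.1% of the genes above background were, so neither list moved as a whole. The part of these genes in the differences by number was not tested.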

How the data were processed

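Total RNA of 6 samples of heat-treated MHCC97H cells (3 POSTN, 3 control) was hybridized to Affymetrix arrays. The authors processed the arrays with MAS 5.0 and the affy package in R, with versions not given in the sources used here, and deposited log2 signals. These are relative to a fixed trimmed mean of 500, and no detection calls were used here. Of 54675 probe sets, 62 controls were left out. Conditions and replicate numbers came from the labels. No pair of arrays held identical values.

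The log2 values were compared as deposited with limma 3.58.1 in R 4.3.3 (two-sided, linear model with empirical Bayes moderation and a trend of the variance on mean signal) and the Benjamini-Hochberg method over 54613 probe sets, at a threshold of 0.05. The number comparison has the condition as a covariate, and numbers 2 and 3 were compared in a fit with 3 levels. Intervals are 95% confidence intervals of these fits. Probe sets with several symbols or none were not named, and symbols are those of GEO's platform annotation. Some genes of the lists, and members without a probe set of 1 symbol, were not analysed here. The members and lists were chosen with earlier results of these data known.

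Named with values are core subunits, the highest and lowest fold change of each complex, the 3 largest differences by number in each, and complex IV isoforms. COX7B2, the members without overlap and the list genes named were chosen after their values were seen. To check the pairing, each array's deviations from the mean of its condition were set against those of the other array of its number, above background. The correlations were 0.53, 0.23 and 0.24. Each gene's 3 deviations within a condition cancel out. A shift of the arrays numbered 1 alone therefore also gives positive correlations for numbers 2 and 3. The check cannot show that numbers 2 and 3 are pairs. Equal numbers were treated as pairs by assumption, since the labels do not name pairs. The array number per condition limits the precision. The scripts were tested on simulated data. Alternatives were other scalings, an offset of 50, filters on dim and cross-hybridizing probe sets, the mean of a gene's probe sets, other variance models and designs, the methods' test, and leaving out arrays. Promoters were searched in Python 3.11.15.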

Additional observations from a re-analysis of the deposited data

How the results depend on the processing

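With POSTN, limma called 0 members under every alternative run, and the methods' test gave 0 at its own thresholds and after adjustment. With the replicate block the subunit median (-0.035) and the 50 lower subunits were the same by construction, and no call changed. After quantile normalization, POSTN minus control medians were -0.012 over all subunits and -0.027 for complex IV, and ATP5F1C turned to 0.010. After median centring they were -0.086 over all subunits, -0.071 for complex I, -0.15 for II, -0.087 for III, -0.12 for IV and -0.087 for V, and NDUFS1 turned to -0.00828, UQCRC1 to -0.043, UQCRC2 to -0.051 and UQCRB to -0.032. Without the probe sets named _x_at or _s_at, 30 of 52 subunits were lower, and the medians were 0.00104 for complex II, -0.035 for IV and -0.086 for V. In that setting ATP5F1A (0.42), COX4I1 (0.22), COX5A (0.065), NDUFS1 (-0.0024), UQCRC2 (-0.095), NDUFB7 (-0.90) and ATP5MC2 (1.43) changed sign, on dimmer probe sets. Those of ATP5F1A (mean log2 signal 5.43), NDUFB7 (4.86) and ATP5MC2 (4.29) were under background, whereas that of UQCRC2 was bright (12.53). With the mean of a gene's probe sets, the complex II median was -0.0053, COX4I1 0.031, COX5A 0.0024 and UQCRC2 -0.048. UQCRC2 was -0.011 with array weights. Without both arrays numbered 1, an alternative added after seeing the data, the complex III median was -0.073, NDUFS1 -0.048, NDUFV1 0.014, UQCRC2 -0.048 and UQCRB -0.024. The cause of these changes was not tested.

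Leaving out 1 array at a time, POSTN minus control medians ran from -0.058 to -0.029 over all subunits, from -0.036 to 0.00398 for complex I, from -0.12 to -0.041 for II and from -0.098 to -0.0038 for III, and that of complex I changed sign without control 3. Single subunits whose sign changed ran from -0.14 to 0.00104 for ATP5F1B, -0.090 to 0.052 for ATP5F1C, -0.0024 to 0.050 for UQCRB, -0.064 to 0.042 for UQCRC2, -0.094 to 0.083 for UQCRC1, -0.14 to 0.010 for COX5A, -0.074 to 0.11 for NDUFS1, -0.10 to 0.021 for NDUFV1 and -0.12 to 1.16 for ATP5MF. All of these lay within the confidence intervals of the fit with all arrays.

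For number 1 minus numbers 2 and 3, 4 members were called with all arrays. There were 11 when only probe sets above background were tested (fewer probe sets to adjust over) and 15 with the mean of a gene's probe sets. There was 1 with log2(signal + 50), 1 after median centring and 1 without the probe sets named _x_at or _s_at. Without the variance trend there were 0, and leaving out 1 array numbered 2 or 3 gave 1 to 6. Shares of all genes were set beside the counts only for all arrays, probe sets above background and the mean of probe sets. For the other settings, a loss among the members cannot be told from a general loss. After quantile normalization 23 subunits were lower, and the medians were 0.063 over all subunits, 0.17 for complex II, 0.081 for III, 0.074 for IV and 0.029 for V. NDUFA2 was -0.37, COX5A -0.22, UQCC1 0.37, IDH2 -0.049 and the complex II median 0.049 without the probe sets named _x_at or _s_at. With the mean of a gene's probe sets, NDUFA2 was -0.026, SDHC 0.097, UQCC1 0.12 and the complex V median -0.022. Leaving out 1 array, the medians ran from -0.018 to 0.026 over all subunits, -0.012 to 0.038 for complex I, -0.023 to 0.12 for II, -0.00963 to 0.061 for III and -0.033 to 0.010 for IV, SDHD from -0.027 to 0.28 and SDHC from -0.037 to 0.000259. Dim members (ATP5MF, COX4I2 and the isoforms under background) are limited by signal, and their intervals are wide.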

Other observations

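The non-coding members were dim. NDUFV1-DT, a transcript that diverges from NDUFV1, had log2 signals of 7.21, 7.47 and 7.72 with POSTN and 7.13, 7.58 and 6.72 in control cells (log2 fold change 0.32, standard error 0.28). NDUFB2-AS1 gave 0.48 (standard error 0.44) and NDUFV2-AS1 gave 0.04 (standard error 0.41). ATP5MC2P1, a pseudogene of ATP5MC2, gave -0.77 (standard error 0.51), with 4.93 on POSTN 2 and 6.63 to 7.14 on the 5 other arrays, and COX6A1P1 was under background. Conditions overlapped in all 5.

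Of the dimmer probe sets of subunits above background, the highest and the lowest log2 fold changes with POSTN were 0.65 for NDUFS1 (standard error 0.27) and -0.59 for ATP5PB (standard error 0.40). The brightest probe sets of these genes gave 0.04 and -0.04. By replicate number, dimmer probe sets of COX5B (0.29, limma adjusted p = 0.019) and ATP5MC3 (0.67, limma adjusted p = 0.047) were higher in number 1, while the brightest ones of these genes were not called.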
